A study of Mus musculus with 6 samples.

Results

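Ribosome biogenesis and the nucleolus were followed through 38 genes, matched exactly by symbol among the 23309 gene symbols measured. The list was drawn up with earlier results of these data known. The RNA came from mouse germinal vesicle (GV) oocytes, which are fully grown and arrested before the meiotic divisions, and from 4-cell embryos, of wild-type females and of females lacking YAP (YAP-/-), the Yes-associated protein, a transcriptional coactivator encoded by Yap1. There were 6 RNA sequencing libraries: 2 of wild-type GV oocytes, 2 of YAP-null GV oocytes, 1 of wild-type 4-cell embryos and 1 of YAP-null 4-cell embryos. Each was made from 60 pooled oocytes or embryos. The females were on an ICR background, 21 to 23 days old, and had received gonadotropin to grow their follicles; those that gave embryos also received an ovulating dose and were mated. The genotype of a 4-cell library is that of the mother. No source used here gives the father's genotype, or how and in which cells Yap1 was deleted. For the embryo libraries 1 label field reads GV oocyte, while the titles and the stage field read 4-cell.

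Ribosomes are assembled in the nucleolus, where RNA polymerase I copies the ribosomal DNA into a long precursor RNA. Small nucleolar ribonucleoproteins (snoRNPs) guide ribose methylation (box C/D) and pseudouridine formation (box H/ACA) on that precursor, while many assembly factors cut and fold it into the small and the large subunit. Fully grown mouse oocytes have a compact, transcriptionally inactive nucleolus, and ribosomal RNA synthesis resumes in the cleaving embryo. The 38 genes comprised 4 nucleolar organisers and chaperones, 6 genes of RNA polymerase I and its factor, 4 box C/D proteins, 4 box H/ACA proteins, 12 small subunit assembly factors and 8 large subunit assembly factors.

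Levels are the deposited FPKM (fragments per kilobase of transcript, scaled to the mapped fragments of each library), a share of the polyadenylated RNA sequenced and not an amount per cell. In such pooled samples, fewer cells and less RNA per cell cannot be told apart. Differences are on the log2(FPKM + 1) scale, which understates the change of low genes, and come with a standard error (SE) from limma and an adjusted p over all genes tested, called under 0.05. The labels do not say whether libraries of a group came from separate animals, so the p-values measure only the spread between these samples, which may be technical. Stage and any difference in how the 2 kinds of library were prepared cannot be told apart. In each list of values, GV library 1 stands before library 2 and wild type before YAP-null.

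The files show the label check and the depth as follows. Yap1 was at 248 and 153.5 FPKM in wild-type GV oocytes, 10.8 and 10.04 FPKM in YAP-null GV oocytes, 89.67 FPKM in wild-type and 33.32 FPKM in YAP-null 4-cell embryos. The embryos called YAP-null, those of YAP-null mothers, thus held more Yap1 RNA than either YAP-null GV library, and its origin was not tested. Read totals are not analysed here. The relative depth implied by the deposited bounds ranged from 0.372 to 1 of that of the deepest library, and 9985 to 10824 genes per library reached 1 FPKM. The bounds gave a median half-width of 5.83 to 20.1% on the member genes they enclosed, but left the value itself outside for 12 members in the wild-type 4-cell, 9 in the YAP-null 4-cell and 1 in a GV library, so they are not given per gene. The 10 oocyte markers, Gdf9 and Zp3 among them, summed to 7669 to 12070 FPKM in the GV libraries. In each genotype 8 of them were higher and 2 lower in library 2 than in library 1. Nlrp5 was at 13.56 and 781.1 FPKM in wild type, and 17.92 and 728 FPKM in YAP-null. Mos was at 718.4 and 255.9 FPKM, then 692 and 237.3 FPKM, in the same GV libraries. The 12 granulosa and cumulus markers summed to 40.4 to 49.6 FPKM there, led by Inha (6.12 to 15.6 FPKM), Nr5a2 (8.30 to 15.4 FPKM), Cyp19a1 (9.51 to 13.6 FPKM) and Amh (3.05 to 4.46 FPKM), with Foxl2 under 1 FPKM and Ptx3 listed at 0 in every library. In 4-cell embryos Nr5a2, also expressed by early embryos, made up 178.9 of 180.4 FPKM in wild type and 92.09 of 93.98 FPKM in YAP-null. The 10 blood and stroma markers summed to 12.95 to 26.04 FPKM in GV libraries, 97.8 FPKM in the wild-type and 41.7 FPKM in the YAP-null 4-cell library, with Pecam1 the highest in each GV library and Ptprc at 0.0828 FPKM or listed at 0.

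All 38 genes had a higher fitted level at the 4-cell stage than in GV oocytes, and 27 of them (71.1%) rose by the test, against 28.2% of the 11452 genes tested. None of the 38 fell, against 27.8% of all genes. Their median difference was 2.29 on the log2 scale, and the median over all genes was -0.10. Both 4-cell libraries lay above all 4 GV libraries in 33 of the 37 members with both 4-cell values (89.2%), against 35.1% of genes, and below them in none, against 35.2%. The summed level of the 37 members was 1278 and 1306 FPKM in wild-type GV oocytes, 1351 and 1266 FPKM in YAP-null GV oocytes, and 6438 and 4489 FPKM in wild-type and YAP-null 4-cell embryos. Without Npm1, the most abundant of them, the 4-cell sums were 4787 and 3751 FPKM. The members passing the test were 1 of 4 organisers, 5 of 6 polymerase I genes, 4 of 4 box C/D genes, 3 of 4 box H/ACA genes, 9 of 12 small subunit factors and 5 of 8 large subunit factors. Leaving out any 1 GV library gave between 25 and 29 calls, against 25.3 to 27.8% of all genes. Fewer members passed in fits left with 1 embryo library, which have no spread between embryos. Without the wild-type 4-cell library the share of all genes that passed fell as well. Within the wild-type libraries 37 of 37 differences were above 0 (median 2.55), and within the YAP-null libraries 38 of 38 (median 2.24). Of all genes, 52.2% and 50.1% were below 0 there.

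**Figure D1:**
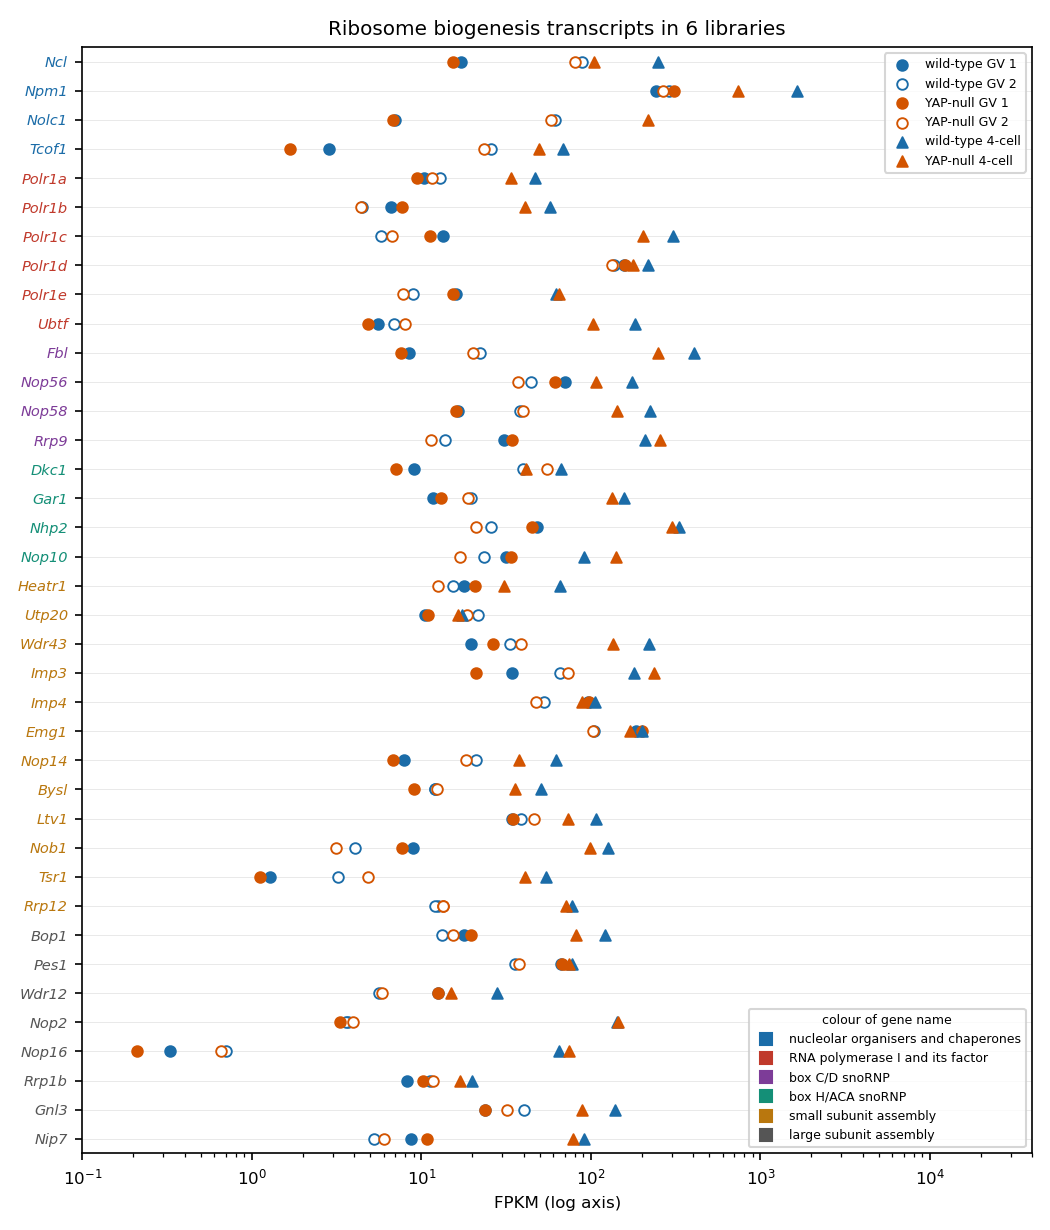
The level in FPKM, on a log axis, of each of the 38 genes in the 6 libraries: circles are GV oocytes (filled for library 1, open for library 2), triangles are 4-cell embryos, blue is wild type and orange is YAP-null. Triangles lie to the right of all 4 circles in 33 of the 37 genes with both 4-cell values, and Nolc1 has no wild-type 4-cell value.

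Among the nucleolar organisers, Npm1 (nucleophosmin, mm9 chr11:33052498-33063206), a histone and ribosome chaperone that forms the outer part of the nucleolus, was the most abundant member. It was at 242.7 and 288 FPKM in wild-type GV oocytes, 310.0 and 265.1 FPKM in YAP-null GV oocytes, and 1651 and 738 FPKM in 4-cell embryos. Both embryo libraries were above all GV libraries, and Npm1 rose with stage by 2.00 ± 0.46 (SE; adjusted p = 0.0115). Without the wild-type 4-cell library its adjusted p was 0.0837, and without the filter on low values 0.103. Ncl (nucleolin, chr1:88241294-88256030), which takes part in ribosomal DNA transcription and in precursor processing, was at 17.07 and 89.06 FPKM in wild-type GV oocytes, 15.38 and 80.49 FPKM in YAP-null GV oocytes, and 248.6 and 103.7 FPKM in 4-cell embryos. The embryo libraries were again the highest, but the GV libraries split by number more than 5-fold and the stage difference of 2.07 ± 0.88 did not pass (adjusted p = 0.0858). Leaving out wild-type GV library 2 or YAP-null GV library 2 gave adjusted p values of 0.0437 and 0.0228 for Ncl.

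Tcof1 (treacle), which links polymerase I to its factor UBF, was at 2.835 and 25.69 FPKM in wild-type GV oocytes, 1.687 and 23.28 FPKM in YAP-null GV oocytes, and 68.22 and 49.17 FPKM in 4-cell embryos. Its stage difference was 2.70 ± 1.07 (adjusted p = 0.0712), and 0.0252 or 0.0187 without the GV library numbered 2 of the wild-type or the YAP-null group. Nolc1, a chaperone of snoRNPs that shuttles between the nucleolus and Cajal bodies, was at 6.973 and 61.34 FPKM in wild-type GV oocytes, 6.802 and 58.23 FPKM in YAP-null GV oocytes and 215.8 FPKM in YAP-null 4-cell embryos. The deposited wild-type 4-cell entry of Nolc1 is marked as failed, so the fit drops that library for this gene. The remaining libraries gave 3.33 ± 1.63 (adjusted p = 0.135), and 0.0390 without YAP-null GV library 2. In Ncl, Tcof1 and Nolc1 the GV libraries of the same number were closer to each other than to the other library of their genotype.

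RNA polymerase I genes rose in 5 of 6 cases, from GV levels of 4.42 to 15.9 FPKM in those 5. Ubtf (chr11:102165874-102180410), the HMG-box factor UBF that binds ribosomal DNA along its length, was at 5.508 and 6.85 FPKM in wild-type GV oocytes, 4.846 and 7.948 FPKM in YAP-null GV oocytes, and 181.4 and 102.9 FPKM in 4-cell embryos. It rose by 4.26 ± 0.37 (adjusted p = 0.000373). Polr1c (chr17:46380869-46384994), a subunit shared with RNA polymerase III, was at 13.45 and 5.774 FPKM in wild-type GV oocytes, 11.17 and 6.741 FPKM in YAP-null GV oocytes, and 304 and 202.8 FPKM in 4-cell embryos. It rose by 4.67 ± 0.44 (adjusted p = 0.000474), one of the 5 largest stage differences among the members. The other subunit shared with polymerase III, Polr1d, had the highest GV level of these genes, 156.5 and 137.5 FPKM in wild type and 159.2 and 133.5 FPKM in YAP-null, and 217.6 and 176.3 FPKM in 4-cell embryos. Its difference of 0.42 ± 0.34 did not pass (adjusted p = 0.329), and its difference from the other polymerase genes was not tested.

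Polr1a, the largest and catalytic subunit, was at 10.31 and 12.79 FPKM in wild-type GV oocytes, 9.476 and 11.5 FPKM in YAP-null GV oocytes, and 46.63 and 33.68 FPKM in 4-cell embryos, a rise of 1.77 ± 0.31 (adjusted p = 0.00394). Polr1b, the next largest subunit, was at 6.63 and 4.438 FPKM, 7.688 and 4.424 FPKM, and 57.06 and 40.57 FPKM in the same order, a rise of 2.89 ± 0.37 (adjusted p = 0.00133). Polr1e, a subunit specific to polymerase I that helps it to initiate, was at 15.92 and 8.886 FPKM, 15.31 and 7.763 FPKM, and 61.85 and 65.13 FPKM, a rise of 2.37 ± 0.41 (adjusted p = 0.00367). In all 3 genes the embryo libraries lay above every GV library. Without the wild-type 4-cell library the adjusted p was 0.0538 for Polr1a and 0.0660 for Polr1e, and without the YAP-null 4-cell library it was 0.0630 for Polr1e.

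The 4 box C/D genes all rose. Fbl (fibrillarin, chr7:28954767-28964288), the ribose methyltransferase of these particles, was at 8.491 and 22.07 FPKM in wild-type GV oocytes, 7.554 and 20.09 FPKM in YAP-null GV oocytes, and 403.9 and 249.7 FPKM in 4-cell embryos. It rose by 4.50 ± 0.54 (adjusted p = 0.00100), and both embryo values were far above all GV values. Nop58, which with Nop56 forms the scaffold of the particle, was at 16.48 and 38.17 FPKM, 15.89 and 39.95 FPKM, and 224.2 and 142.7 FPKM, a rise of 2.78 ± 0.53 (adjusted p = 0.00537). Nop56 itself was already at 70.01 and 44.4 FPKM in wild-type and 61.24 and 37.37 FPKM in YAP-null GV oocytes, and reached 173.8 and 107.6 FPKM in embryos, a rise of 1.39 ± 0.39 (adjusted p = 0.0236). Rrp9, the protein particular to the U3 snoRNP, was at 30.68 and 13.79 FPKM, 34.3 and 11.4 FPKM, and 207.3 and 254.6 FPKM, a rise of 3.44 ± 0.54 (adjusted p = 0.00266). Embryo values were above all GV values in the 4 genes. Without the wild-type or the YAP-null 4-cell library the adjusted p was 0.183 or 0.0840 for Nop56, 0.116 or 0.0617 for Nop58, and 0.0642 or 0.0645 for Rrp9. For Nop56 it was 0.0640 and 0.0591 without wild-type or YAP-null GV library 2, and 0.0651 without the filter on low values.

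Box H/ACA genes rose in 3 of 4 cases. Nhp2 (chr11:51433275-51437216), a core RNA-binding protein of the particle, was at 48.34 and 25.82 FPKM in wild-type GV oocytes, 44.72 and 21.03 FPKM in YAP-null GV oocytes, and 328.6 and 301.2 FPKM in 4-cell embryos, a rise of 3.22 ± 0.45 (adjusted p = 0.00169). Gar1, which helps to load and release the substrate RNA, was at 11.73 and 19.59 FPKM, 12.99 and 18.76 FPKM, and 157.3 and 133.7 FPKM, a rise of 3.15 ± 0.36 (adjusted p = 0.000824). Nop10, a small protein that contacts the catalytic subunit, was at 31.48 and 23.26 FPKM, 33.77 and 16.83 FPKM, and 90.76 and 139.7 FPKM, a rise of 2.10 ± 0.42 (adjusted p = 0.00632). Without the wild-type or the YAP-null 4-cell library the adjusted p of Nop10 was 0.0514 or 0.0879. Dkc1 (dyskerin), the pseudouridine synthase, was not called. It was at 9.088 and 39.83 FPKM in wild-type GV oocytes, 7.071 and 54.71 FPKM in YAP-null GV oocytes, and 66.9 and 41.38 FPKM in 4-cell embryos, so that the YAP-null embryo value lay inside the GV range. Its difference of 1.37 ± 0.90 did not pass (adjusted p = 0.233), and gave 0.0418 without YAP-null GV library 2.

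Of the 12 small subunit factors 9 rose, with a group median of 1.87. Nob1 (chr8:109936389-109948938), the endonuclease that makes the mature end of the small subunit RNA, was at 8.888 and 4.072 FPKM in wild-type GV oocytes, 7.72 and 3.114 FPKM in YAP-null GV oocytes, and 126.3 and 98.16 FPKM in 4-cell embryos, a rise of 4.11 ± 0.46 (adjusted p = 0.000754). Tsr1, a GTPase-like factor of late small subunit maturation, was at 1.278 and 3.238 FPKM, 1.118 and 4.866 FPKM, and 53.99 and 41.08 FPKM, a rise of 3.86 ± 0.53 (adjusted p = 0.00153). Rrp12, needed for export of the subunit, was at 12.53 and 12.09 FPKM, 13.48 and 13.42 FPKM, and 76.86 and 71.35 FPKM, a rise of 2.44 ± 0.29 (adjusted p = 0.000970). These late-acting factors had embryo levels several times above any GV library. Ltv1, another export-related factor, was higher in oocytes, at 34.15 and 38.67 FPKM and 34.88 and 46.24 FPKM, and reached 107.4 and 73.41 FPKM, a rise of 1.20 ± 0.34 (adjusted p = 0.0243). Bysl (bystin), a scaffold of the pre-small subunit, was at 11.96 and 11.98 FPKM, 9.053 and 12.33 FPKM, and 50.44 and 35.65 FPKM, a rise of 1.83 ± 0.31 (adjusted p = 0.00355).

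Factors of the early small subunit processome rose in 4 further cases. Wdr43, a WD-repeat protein of that complex, was at 19.73 and 33.49 FPKM in wild-type GV oocytes, 26.31 and 38.63 FPKM in YAP-null GV oocytes, and 220.4 and 135.1 FPKM in embryos, a rise of 2.55 ± 0.42 (adjusted p = 0.00306). Heatr1, which also promotes polymerase I transcription, was at 17.76 and 15.36 FPKM, 20.81 and 12.48 FPKM, and 65.43 and 30.72 FPKM, a rise of 1.41 ± 0.40 (adjusted p = 0.0233). Imp3, a protein that pairs the U3 RNA with the precursor, was at 34.08 and 66.11 FPKM, 20.88 and 73.45 FPKM, and 178.9 and 233.9 FPKM, a rise of 2.22 ± 0.59 (adjusted p = 0.0190). In each of these genes both embryo libraries were above every GV library. Nop14, a further processome protein, was at 7.909 and 20.98 FPKM, 6.836 and 18.32 FPKM, and 62.34 and 37.68 FPKM, a rise of 1.92 ± 0.54 (adjusted p = 0.0240).

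Emg1, Imp4 and Utp20 were not called. Emg1 (chr6:124654388-124662196), a methyltransferase of the small subunit RNA and the highest of the 12 by mean level, was at 184.5 and 104.1 FPKM in wild-type GV oocytes, 201.4 and 103.5 FPKM in YAP-null GV oocytes, and 198.9 and 169.8 FPKM in embryos, a difference of 0.38 ± 0.45 (adjusted p = 0.505). Imp4, which acts with Imp3, was at 95.54 and 52.92 FPKM, 97.48 and 47.29 FPKM, and 106 and 87.97 FPKM, a difference of 0.47 ± 0.44 (adjusted p = 0.400). Utp20, a large scaffold protein, was at 10.52 and 21.5 FPKM, 10.96 and 18.63 FPKM, and 17.28 and 16.4 FPKM, a difference of 0.18 ± 0.41 (adjusted p = 0.726), the smallest among the members, and -0.02 without wild-type GV library 1. In all 3 at least 1 embryo library lay within the GV range.

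Adjusted p values of the small subunit factors moved when single libraries were left out. Leaving out a 4-cell library keeps only 1, with no spread between embryos. Without the wild-type 4-cell library the share of all genes called fell as well, so a lost call there is not particular to these genes. Without the wild-type 4-cell library the adjusted p was 0.222 for Heatr1, 0.0605 for Wdr43, 0.138 for Imp3, 0.254 for Nop14, 0.0510 for Bysl, 0.143 for Ltv1 and 0.0599 for Tsr1. Without the YAP-null 4-cell library it was 0.200 for Imp3 and 0.141 for Nop14. Heatr1 gave 0.0580, 0.0569 and 0.0522 without wild-type GV library 1, wild-type GV library 2 or YAP-null GV library 2. Ltv1 gave 0.0791, 0.0641 and 0.0578 without wild-type GV library 1, wild-type GV library 2 or YAP-null GV library 1. With no filter on low values Heatr1, Imp3 and Nop14 had adjusted p values of 0.0725, 0.103 and 0.116. Nob1 and Rrp12 kept their calls when any 1 library was left out.

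The 2 largest stage differences among all members were in large subunit factors. Nop16 (chr13:54685552-54691435), a nucleolar factor of large subunit assembly, was at 0.328 and 0.699 FPKM in wild-type GV oocytes, 0.208 and 0.654 FPKM in YAP-null GV oocytes, and 64.8 and 74.69 FPKM in 4-cell embryos. It rose by 5.598 ± 0.32 (adjusted p = 0.000141), from under 1 FPKM in every GV library. Its mean reached the filter of 1 FPKM only through the embryo values, so it could be called only as higher. Nop2 (chr6:125081901-125094771), a cytosine methyltransferase of the large subunit RNA, was at 3.684 and 3.572 FPKM in wild-type GV oocytes, 3.328 and 3.969 FPKM in YAP-null GV oocytes, and 142.5 and 144.8 FPKM in embryos, a rise of 4.96 ± 0.30 (adjusted p = 0.000142). Its oocyte values lay within 3.33 to 3.97 FPKM, and those of the genotypes overlapped. Nip7, which binds precursor RNA in large subunit assembly, was at 8.712 and 5.262 FPKM, 10.79 and 5.981 FPKM, and 91.4 and 78.43 FPKM, a rise of 3.35 ± 0.39 (adjusted p = 0.000855).

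Bop1, Pes1 and Wdr12 encode 1 complex, PeBoW, required for large subunit RNA processing, and their stage differences ran from 0.60 to 2.54. Bop1 was at 17.72 and 13.3 FPKM in wild-type GV oocytes, 19.68 and 15.44 FPKM in YAP-null GV oocytes, and 121.6 and 81.61 FPKM in embryos, a rise of 2.54 ± 0.35 (adjusted p = 0.00156). Wdr12 was at 12.59 and 5.646 FPKM, 12.49 and 5.86 FPKM, and 28.03 and 15 FPKM, a difference of 1.17 ± 0.49 (adjusted p = 0.0806). Pes1 (chr11:3863978-3880007), the highest of the group by mean level, was at 66.92 and 35.67 FPKM, 67.58 and 37.41 FPKM, and 77.2 and 74.44 FPKM, a difference of 0.60 ± 0.42 (adjusted p = 0.259). The difference between these genes was not itself tested. Gnl3 (nucleostemin), a nucleolar GTPase, was at 23.77 and 40.37 FPKM, 23.59 and 31.79 FPKM, and 138.8 and 89.02 FPKM, a rise of 1.90 ± 0.37 (adjusted p = 0.00586), with an adjusted p of 0.0811 without the wild-type 4-cell library. Rrp1b, a nucleolar protein of large subunit precursor processing, was at 8.263 and 11.23 FPKM, 10.22 and 11.62 FPKM, and 19.81 and 16.8 FPKM, a difference of 0.77 ± 0.32 (adjusted p = 0.0803).

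**Figure D2:**
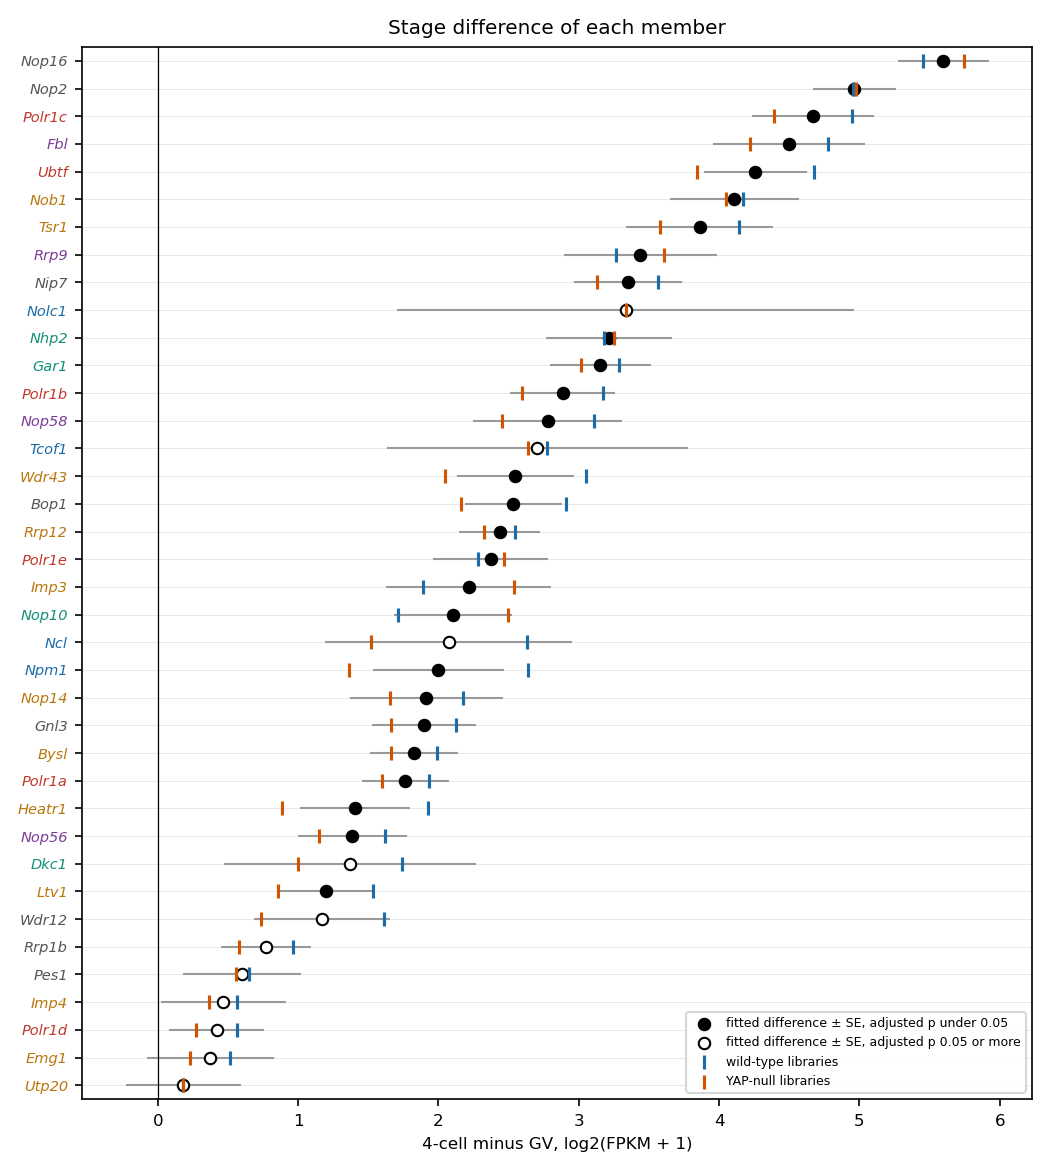
The 4-cell minus GV difference of each of the 38 genes on the log2(FPKM + 1) axis, as the fitted value (circle, filled where the adjusted p is under 0.05) with a bar of 1 SE either way, and the difference within the wild-type (blue tick) and YAP-null (orange tick) libraries. Every circle lies above 0, from 0.18 (Utp20) to 5.598 (Nop16). The wild-type tick is to the right of the YAP-null tick in 30 of 37 genes, against 46.3% of all genes tested.

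Promoters were set beside these values because Myc, a transcription factor known to bind the E-box CACGTG in promoters of ribosome biogenesis genes, was among the genes that rose: it was at 0.138 and 0.246 FPKM in wild-type GV oocytes, 0.147 and 0.230 FPKM in YAP-null GV oocytes, and 26.7 and 16.8 FPKM in embryos (4.22 ± 0.29, adjusted p = 0.000188). Like Nop16, Myc passed the filter on low values only through its embryo levels, so it could be called only as higher. RefSeq promoters (GRCm38.p6, from 250 bases before to 50 after the start) were matched for 33 members, and 30 of them with 1 listed start were searched on both strands. CACGTG was in 7 of the 30 (23.3%), against 7.12% of 22862 promoters and 10.7% of the 6817 whose genes had a mean of at least 1 FPKM. The ETS-type letters CCGGAAG were in 11 of 30 (36.7%), against 9.12% and 20.1%. The TEAD letters GGAATG, the core of the site bound by YAP's DNA-binding partners, were in 2 (6.67%, Polr1b and Emg1), against 14.6% and 11.5%. The NRF1 motif, also searched, was in 0 of 30, against 0.949% and 2.24%. The 7 E-boxes are shown in 30-base windows, with the E-box in capitals, to show where they lie.
Utp20, chr10:88826765-88826794, minus strand: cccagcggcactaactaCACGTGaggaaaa
Wdr43, chr17:71616220-71616249, plus strand: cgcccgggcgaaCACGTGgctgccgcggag
Imp4, chr1:34439696-34439725, plus strand: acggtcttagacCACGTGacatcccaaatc
Ltv1, chr10:13193092-13193121, minus strand: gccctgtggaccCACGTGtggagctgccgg
Tsr1, chr11:74898092-74898121, plus strand: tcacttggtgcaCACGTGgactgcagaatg
Pes1, chr11:3963965-3963994, plus strand: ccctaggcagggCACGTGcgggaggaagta
Nop2, chr6:125131811-125131840, plus strand: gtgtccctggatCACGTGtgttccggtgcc

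The E-box lay before the start in Imp4 (121 bases) and Nop2 (60 bases) and after it in the other five. The promoters of Nop2, Tsr1 and Ltv1 held both an E-box and the CCGGAAG letters, with stage differences of 4.96, 3.86 and 1.20. That of Nop16, the member with the largest stage difference, held neither. For Nop2, one of the 5 members with the largest stage difference, both are shown in capitals in the 250 bases before its start (GRCm38.p6 chr6:125131633-125131882, plus strand).
Nop2: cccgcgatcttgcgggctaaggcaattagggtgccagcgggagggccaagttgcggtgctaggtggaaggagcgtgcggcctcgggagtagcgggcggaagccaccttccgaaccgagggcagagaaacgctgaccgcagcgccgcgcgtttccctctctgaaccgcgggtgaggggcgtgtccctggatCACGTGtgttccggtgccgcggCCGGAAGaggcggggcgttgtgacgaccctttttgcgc
The 7 members with an E-box had a median stage difference of 1.20 (from 0.18 in Utp20 to 4.96 in Nop2), and the 23 without had 2.22. The 11 with CCGGAAG had a median of 3.22 and the 19 without had 1.92. These are descriptions of letters in a window and carry no test.

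Whether the loss of YAP altered these genes in oocytes was asked with the 2 against 2 GV libraries. None of 37 members tested was called by limma, and none reached an unadjusted p under 0.05, against 0% called among 10463 genes, of which 22 reached an unadjusted p under 0.05. Nop16 was under the filter of a mean of 1 FPKM. The median difference was -0.03, and the largest was that of Tcof1, at -0.32, among members that ranged up to 0.30 (Wdr43). YAP-null values were higher in both numbered pairs in 7 members, lower in both in 12, and opposite in 19. The groups did not overlap in 1 of 38, Rrp12, where both YAP-null values (13.48 and 13.42 FPKM) were above both wild-type values (12.53 and 12.09 FPKM), against 5.1% of genes in that direction, and in none in the other, against 5.68%. With 2 libraries a side, exact permutation allows no p below 0.333. In data simulated with the spread of these libraries, the fit recovered 0% of planted log2 differences of 1 and 2, and 50% of 4. The simulated libraries varied independently, while in the data the difference between library numbers was largely shared by the genotypes (r = 0.849 across genes). The recovery rates thus describe this unpaired fit only. Yap1 itself, measured as lower in YAP-null oocytes, was not called either, so the lack of calls does not show that the members were unchanged. The summed level of the 37 members differed between the genotypes by less than the spread among the GV libraries.

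At the 4-cell stage, where each genotype has 1 library and the genotype difference alone was not tested, 31 of 37 members (83.8%) were lower in the YAP-null library, against 47.8% of 10854 genes. Their median difference was -0.46, and that of all genes 0.05. Ncl, Npm1 and Heatr1 were at least 2-fold lower, 8.11% of the members against 9.97% of all genes, so a share near the background. None was at least 2-fold higher, against 17.7%. The YAP-null level of Ncl was 103.7 FPKM against 248.6 FPKM in the wild type (-1.25), that of Npm1 738 against 1651 FPKM (-1.16), and that of Heatr1 30.72 against 65.43 FPKM (-1.07). Wdr12 followed at 15 against 28.03 FPKM (-0.86) and Ubtf at 102.9 against 181.4 FPKM (-0.81). The summed YAP-null level of the 37 members was 69.7% of the wild-type sum, and 78.4% without Npm1.

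By role, the YAP-null 4-cell sum was 45.3% of the wild type for Ncl, Npm1 and Tcof1 together, 71.5% for the polymerase I genes and 74.8% for the box C/D genes. It was 81.6% for the small subunit factors, 84.0% for the large subunit factors and 95.7% for the box H/ACA genes. The 6 members with a higher YAP-null value were Nop10 (139.7 against 90.76 FPKM, 0.62), Imp3 (233.9 against 178.9 FPKM, 0.38), Rrp9 (254.6 against 207.3 FPKM, 0.29), Nop16 (74.69 against 64.8 FPKM, 0.20), Polr1e (65.13 against 61.85 FPKM, 0.07) and Nop2 (144.8 against 142.5 FPKM, 0.02). Under median-ratio scaling of the libraries the last 3 turned to -0.00061, -0.13 and -0.18. The members' median relative to that of all genes was -0.51 as deposited, -0.26 after quantile normalization, -0.50 with equal FPKM sums and -0.52 with median-ratio scaling.

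Other markers moved with this difference. The 10 oocyte markers summed to 127.2 FPKM in the wild-type and 1491 FPKM in the YAP-null 4-cell library. All 10 were at least 2-fold higher in the latter, against 17.7% of all genes. They ran from Zp3 at 52.11 against 172 FPKM to Bcl2l10 at 14.4 against 582.6 FPKM. None was at 0 in either. The 8 cleavage embryo markers summed to 810.1 and 539.5 FPKM, and 7 of 8 were lower in the YAP-null library, against 47.8% of all genes. Among them were Klf5 at 106 against 48.56 FPKM and Tead4 at 87.42 against 40.38 FPKM. Krt18 was higher, at 3.272 against 4.432 FPKM. Of the blood and stroma markers 5 of 5 measured were also lower in YAP-null embryos, against the same 47.8%. The haemoglobin gene Hba-a2 was at 26.02 against 0.0668 FPKM, Hbb-b2 at 15.92 against 0 FPKM and Hba-a1 at 26.28 against 25.88 FPKM. Hba-a2 was called by limma for stage by genotype (adjusted p = 0.0200). The part of these markers in the members' difference was not tested.

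**Figure D3:**
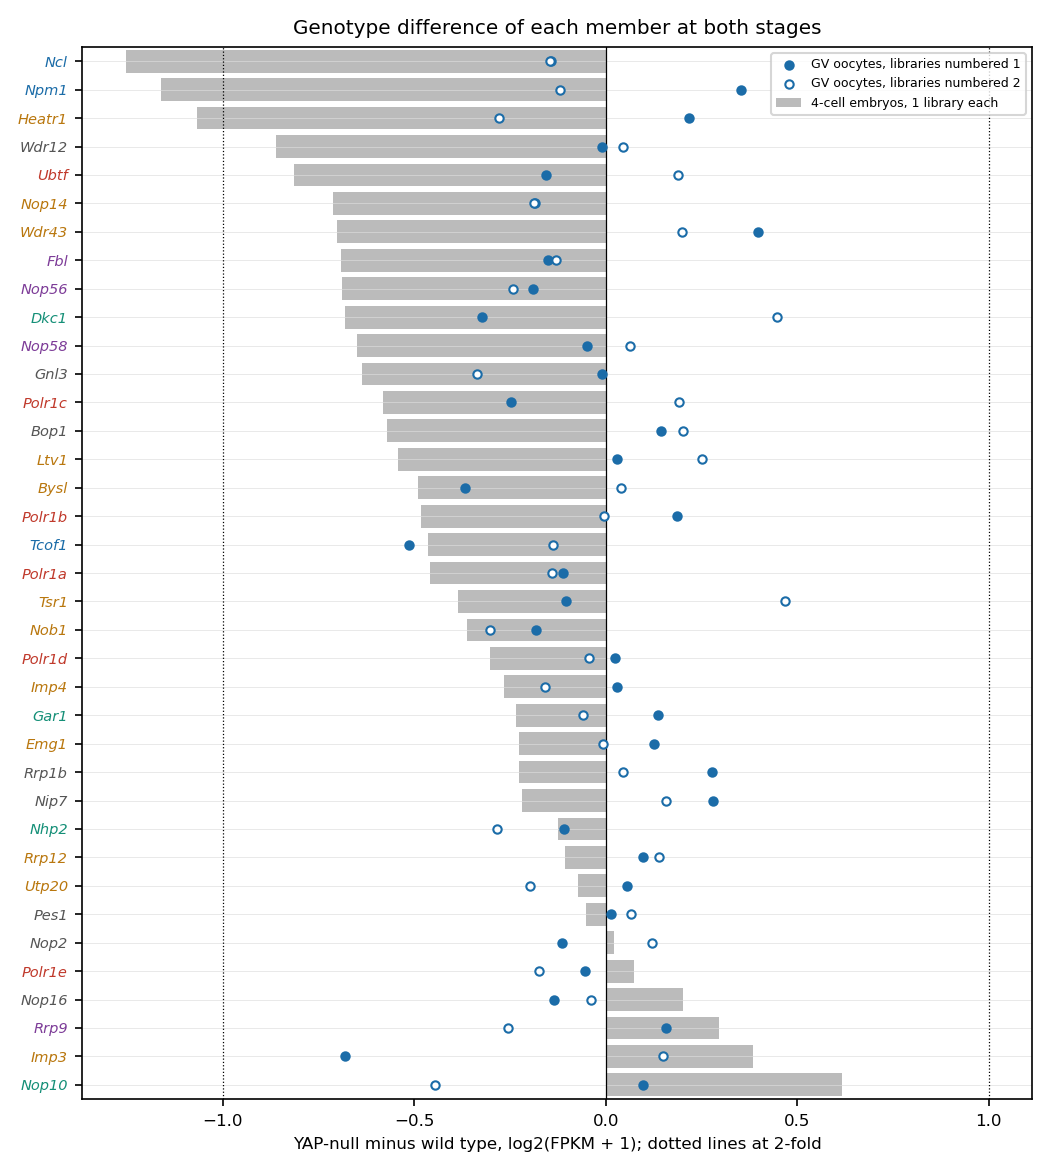
YAP-null minus wild-type difference of the 37 genes with both 4-cell values, on the log2(FPKM + 1) axis, with grey bars for the 4-cell libraries (1 per genotype) and circles for the GV libraries of each number; dotted lines mark 2-fold. Bars lie below 0 in 31 of 37 genes and pass the lower dotted line in Ncl, Npm1 and Heatr1, while no GV circle passes a dotted line.

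The stage difference was larger in the wild-type than in the YAP-null libraries in 30 of 37 members, against 46.3% of all genes tested. The members' medians were 2.55 and 2.24. This count rests on the same embryo libraries as the 4-cell genotype difference and is not a separate result. By limma's test of stage by genotype, with the spread taken from the GV libraries alone, 0 of 37 members were called and 0 had an unadjusted p under 0.05, against 0.157% called of 11451 genes. The smallest adjusted p was 0.578, for Npm1, whose wild-type stage difference was 2.64 and whose YAP-null one was 1.36. The test assumes that the lone 4-cell libraries vary as the GV libraries do.

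The GV libraries differed by number more than by genotype. Both libraries numbered 2 were above both numbered 1 in 19 of 38 members, against 43% of genes, and below them in 16, against 34.4%. Levels were at least 2-fold apart the same way in both genotypes in 8 of 38 members (21.1%), against 17.3% of genes, again near the background. The members with the largest splits were the organisers Tcof1, Nolc1 and Ncl, and Dkc1 of the box H/ACA genes. The remaining box H/ACA genes split less, with Gar1 higher and Nhp2 and Nop10 lower in library 2. Library 2 over library 1 was 9.06-fold in wild type and 13.8-fold in YAP-null for Tcof1, 8.80-fold and 8.56-fold for Nolc1, 5.22-fold and 5.23-fold for Ncl, and 4.38-fold and 7.74-fold for Dkc1. Npm1, the remaining organiser, had 288 over 242.7 FPKM in wild type and 265.1 over 310.0 FPKM in YAP-null. These 4 genes with the large splits were also among the 11 members whose stage difference was not called. What the library numbers stand for is not given in the labels.

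**Figure D4:**
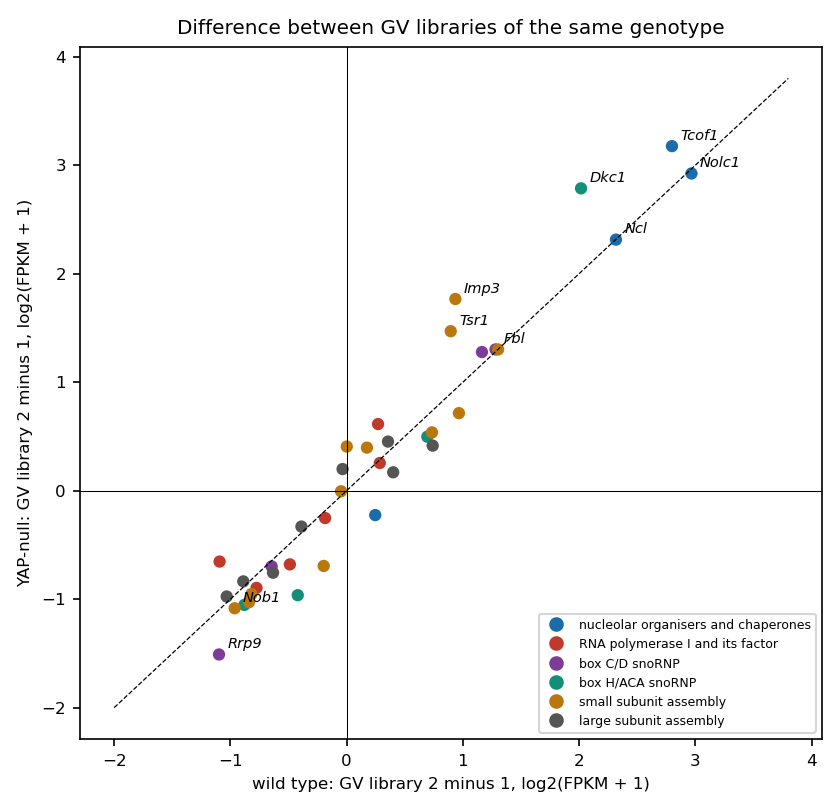
Difference between GV library 2 and library 1 in wild type (x axis) and in YAP-null (y axis), both on the log2(FPKM + 1) scale, for the 38 genes coloured by role; the dashed line marks equal differences. Tcof1, Nolc1, Ncl and Dkc1 lie farthest up the line, between 2.02 and 2.97 in wild type and between 2.31 and 3.18 in YAP-null.

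Other genes of the pathway were described from lists of further genes. Of 78 other ribosome biogenesis genes with values, 42 rose with stage, against 28.2% of all genes, and 2 fell, against 27.8% (median 1.55). In GV oocytes 0 of 76 were called between the genotypes and 1, Rrs1, had an unadjusted p under 0.05. In the YAP-null 4-cell library 66 of 78 were lower, against 47.8% of all genes (median -0.33). The 8 at least 2-fold lower are near the background of 9.97%, and none was at least 2-fold higher, against 17.7%. The largest rises were Rrs1, a large subunit factor (2.35 and 2.768, 0.174 and 0.818, then 69.18 and 79.54 FPKM; 5.05 ± 0.45, adjusted p = 0.000399), Nol11, of the small subunit processome (4.86 ± 0.31, adjusted p = 0.000167), and Surf6, a nucleolar factor (4.30 ± 0.68, adjusted p = 0.00266). Riok1, a kinase of late small subunit maturation, went the other way, from 138 and 111.8 FPKM and 165 and 101.1 FPKM in GV oocytes to 15.76 and 27.83 FPKM in embryos (fell by 2.54 ± 0.38 on the log2 scale, adjusted p = 0.00220). The gene that also fell was Noc4l (-1.20 ± 0.39, adjusted p = 0.0380), named after its value was seen. Eftud1 (-1.34 ± 0.56, adjusted p = 0.0807) and Bms1 (-1.24 ± 0.79, adjusted p = 0.225) were not called. Between the 4-cell libraries the largest differences were those of Ftsj3 (-1.51), Rrp1 (-1.29) and Wdr46 (-1.18) on the lower side and of Riok1 (0.78), Utp14b (0.49) and Rrs1 (0.20) on the higher.

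Further polymerase I genes rose in 11 of 13 cases tested, against 28.2% of all genes (median 2.40). They include Polr2e, Polr2f, Polr2h, Polr2k and Polr2l, subunits shared with RNA polymerases II and III, of which all but Polr2k rose. Also among those that rose were Rrn3, the factor that brings the polymerase to its promoter (2.40 ± 0.32, adjusted p = 0.00142), and Ttf1, which ends transcription of the ribosomal DNA (3.62 ± 0.37, adjusted p = 0.000625). Ttf1, under 1 FPKM in every GV library, passed the filter on low values only through its embryo levels. Taf1b, a part of the promoter selectivity factor, was at -0.996 ± 0.39 (adjusted p = 0.0709), and Taf1a was listed at 0 in all 6 libraries. Of 7 genes listed as snoRNP assembly factors 4 rose, against the same 28.2%, Nufip1, Ruvbl1, Naf1 and Nhp2l1, with a median of 2.27 over the 7. Nhp2l1 is itself a core protein of the box C/D particle. Among 7 regulators of ribosome production tested, 2 rose, Myc and Trp53, a share near the 28.2% of all genes. Max, the binding partner of Myc, was the 1 that fell, by 0.93 ± 0.30 on the log2 scale (adjusted p = 0.0371), against 27.8% of all genes. The other 4, Mtor and Rptor among them, were not called.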

How the data were processed

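Polyadenylated RNA was sequenced paired-end from 6 libraries, each of 60 oocytes or embryos. Per the submitters' processing notes, CASAVA 1.8 and TopHat were used with mouse build mm9; no source used here names the TopHat version, the quantifying program or the annotation. The deposited values are FPKM per gene and library with lower and upper bounds, also FPKM, as the authors' tables give them; the Nolc1 entry marked as failed was treated as missing. Values of the 260 symbols with several loci were added up, and no member is among them. Coordinates of genes are mm9 as deposited; promoter coordinates are GRCm38.p6, and the builds were not converted.

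Tests used limma 3.58.1 in R 4.3.3 with a mean-variance trend on log2(FPKM + 1), for genes whose mean in the compared libraries reached 1 FPKM, and Benjamini-Hochberg adjustment at 0.05. The GV genotype fit used the 4 GV libraries, the stage fit all 6 with genotype as a covariate, and the stage by genotype fit 4 group means. The 4-cell genotypes were compared by a 2-fold rule. Scripts were tested on simulated data. Alternatives were pseudocounts of 0.1 and 5, filters, 3 scalings, single genotypes, each library left out, a replicate block and, chosen after seeing the data, GV libraries of 1 number only.

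The members and gene lists were chosen with earlier results of these data known. Levels in every library are given for the highest member of each role, the members with the largest differences and every called member, and here for all 38; from the other ribosome biogenesis genes, the 3 with the largest difference each way were named.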

Additional observations from a re-analysis of the deposited data

How the results depend on the processing

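The members' median stage difference was 2.08 with a pseudocount of 5, 2.55 in the wild-type libraries only, and 2.57 and 1.93 with only the GV libraries numbered 1 and 2; leaving out 1 library gave 2.09 to 2.55. The count of stage calls (27) ran from 12 to 29 with 1 library left out, was 4 in the wild-type and 0 in the YAP-null libraries alone, with at most 1 member below 0 in any setting: Utp20, at -0.02 without wild-type GV library 1 and -0.24 against the GV libraries numbered 2, and Emg1, at -0.07 against those numbered 1. Fits left with 1 embryo library, those within a genotype included, have no spread between embryos. Without the wild-type 4-cell library, and in the YAP-null libraries alone, the share of all genes called higher fell as well. A lower count of stage calls there is thus not particular to the members. That share was not available for the wild-type libraries alone or without the YAP-null 4-cell library. The median 4-cell genotype difference (-0.46) was -0.42 with a pseudocount of 5, -0.34 after quantile normalization, -0.27 with equal FPKM sums and -0.66 with median-ratio scaling. Of 37 members, the number at least 2-fold lower was 1 with equal sums, against 6.96% of all genes. It was 5 with median-ratio scaling, against 14.2% of all genes, so again near the background. At a 4-fold rule it was 0. Median-ratio scaling turned Nop2 to -0.18, Polr1e to -0.13 and Nop16 to -0.00061. The median GV difference (-0.03) was -0.17 with equal sums and 0.0166 to 0.0768 with 1 library left out. A fit with the replicate block called 0 members in GV oocytes, with a median of -0.03; the labels do not say that the numbers pair libraries, though the number differences of the genotypes correlated across genes (r = 0.849; genes are not independent replicates). With 1 library per genotype at the 4-cell stage, no replicate bounds those differences, and FPKM tables without read totals limit what can be said of members near 1 FPKM.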
